A study of Mus musculus with 6 samples.

Results

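The clustered protocadherins were 58 of the 55385 genes counted by RNA-seq in mouse embryonic stem cells (mESCs). They were taken by name, as every gene whose symbol starts with Pcdh and goes on with the cluster letters a, ac, b, ga, gb or gc and a number. This gave 14 genes of the alpha cluster, 22 of the beta cluster and 22 of the gamma cluster. All lie on the plus strand of chromosome 18 of GRCm38, the alpha cluster between 36930184 and 37187661, the beta cluster between 37264938 and 37524479 and the gamma cluster between 37661793 and 37841873. One alpha symbol, *Pcdha11*, stands for 2 rows with different gene identifiers, and both were kept.

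Clustered protocadherins are cadherin-like proteins of the cell surface that recognize identical copies of themselves on a facing membrane. In the alpha and gamma clusters each gene contributes 1 variable exon with its own promoter, which is spliced to constant exons shared by the whole cluster, whereas a beta gene is a single exon. Single neurons transcribe a few of these promoters, chosen largely at random and independently on each chromosome copy, in a process that involves CTCF, cohesin, distal enhancers and DNA methylation. The C-type genes at the downstream end of the alpha and gamma clusters escape much of this random choice.

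To measure the effect of the *Wnt6* loop anchor on transcription, the study compared wild-type mESCs with mESCs carrying a heterozygous or a homozygous *Wnt6* deletion. All 6 libraries, 2 for each of the 3 genotypes, came from G4 cells, an F1 hybrid line, kept with LIF on CD1 feeder cells, and the deletions were made in these cells with CRISPR-Cas9. The sources used here do not say which clone each library came from, and the methods state triplicates while the labels give 2 libraries per genotype, so p-values measure the spread between these libraries, which may be technical. Polyadenylated RNA was sequenced from stranded libraries.

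The libraries held 23813912 to 28964706 counts, and 3 counts corresponded to 0.102 to 0.131 CPM, the unit of counts relative to library size after TMM scaling for composition. As a check of genotype, reads on *Wnt6* numbered 11 and 13 without the deletion, 6 and 4 in heterozygous cells and 0 in both homozygous libraries, the order the labels give. The 34 fibroblast markers, which would mark feeder cells, were all detected, and their summed level was 5357 to 5452 CPM in wild-type, 4010 to 4018 CPM in heterozygous and 2828 to 2843 CPM in homozygous libraries. The 17 pluripotency markers summed to 4705 to 4818, 4413 to 4452 and 4771 to 5012 CPM in the same order. RNA of mESCs and of feeder cells was counted together, and in such bulk samples fewer cells of a type and less RNA per cell cannot be told apart. For the same reason the number of protocadherins used by 1 cell was not measured.

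Gamma genes supplied most of the clustered protocadherin counts in these libraries of mESCs with feeder cells. How many of these counts came from either cell type was not measured. In wild-type cells the gamma cluster summed to 32.0 ± 2.65 CPM, the beta cluster to 5.15 ± 0.0307 CPM and the alpha cluster to 0.695 ± 0.0688 CPM (SD, n = 2 each). The gamma cluster took 84.5% ± 1.17, the beta cluster 13.6% ± 0.862 and the alpha cluster 1.85% ± 0.31 of all clustered protocadherin counts (SD, n = 2). These sums and shares were not scaled by length. The exon length that no other gene on the same strand shares differed between clusters. It was 1570 to 4614 bases in gamma, 2588 to 8695 in beta and 494 to 4606 in alpha genes. The gamma share was 87.2% ± 2.11 in heterozygous and 84.0% ± 0.573 in homozygous libraries (SD, n = 2), and the order of the clusters was the same in all 6 libraries.

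Detection followed the same order. A count was present in every library for 21 of 22 gamma genes, 12 of 22 beta genes and 2 of 14 alpha genes. More than 3 counts in every library were reached by 19 gamma genes, 2 beta genes and 1 alpha gene. In contrast, 11 alpha genes, 9 beta genes and 1 gamma gene had at most 3 counts in every library. *Pcdhb12* and the second row named *Pcdha11* had no count in any library, which at this depth allows a level of up to 0.102 to 0.131 CPM in each. Exons of the opposite strand cover 1927 of the 3034 exon bases of *Pcdhb12*. In the second *Pcdha11* row they cover 3338 of the 4606 exon bases that no other gene on its strand shares. The bound does not cover reads lost there, as the strand setting is not given in the sources used here. The filter of at least 10 counts in at least 2 libraries passed 23 genes, 1 alpha, 2 beta and 20 gamma, and comparisons between genotypes are given for these only.

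**Figure D1:**
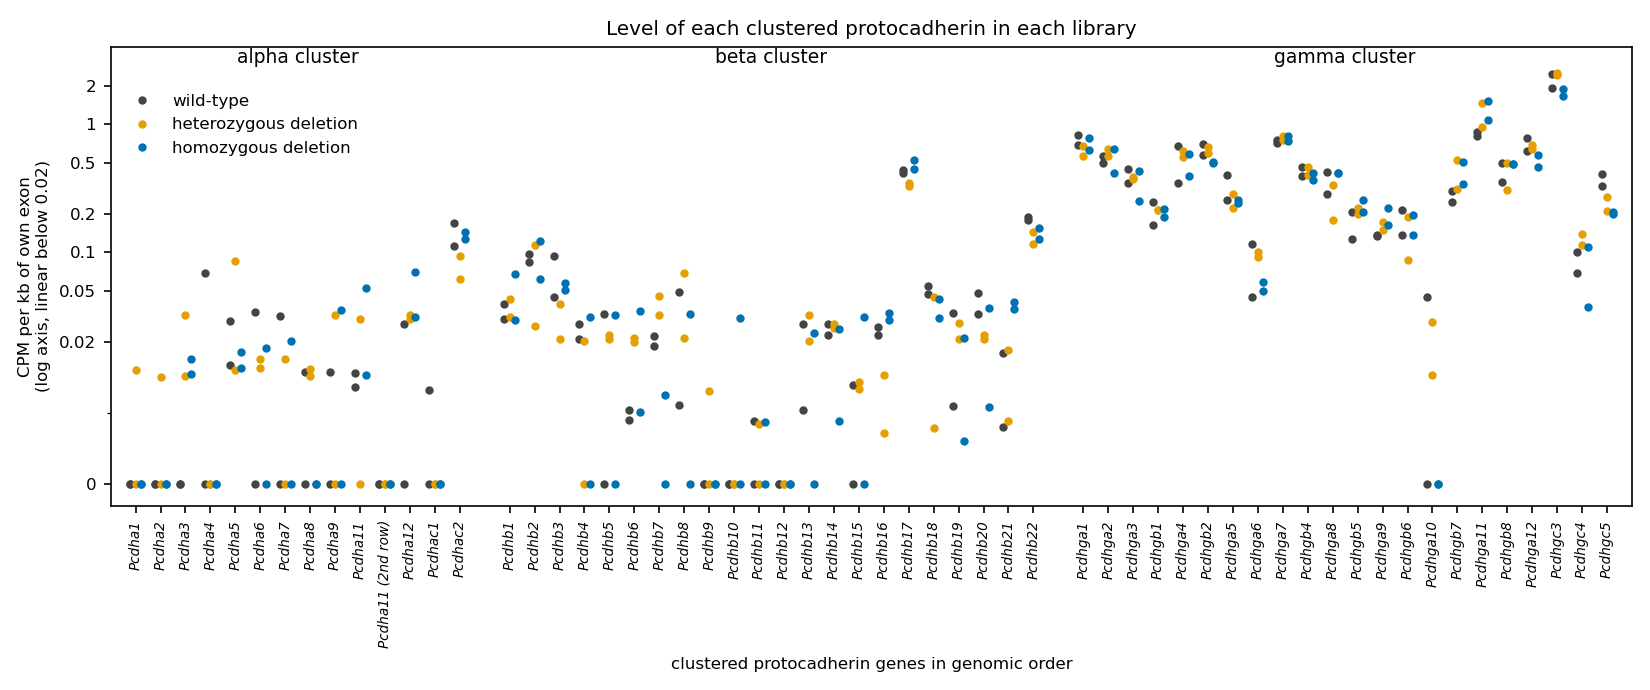
Level of each clustered protocadherin in CPM per kb of its own exon sequence (log axis, linear below 0.02) against its order along the alpha, beta and gamma clusters, with 1 dot per library colored by genotype. Gamma genes other than *Pcdhga10* lie mostly above the beta and alpha genes, where *Pcdhb17*, *Pcdhb22* and *Pcdhac2* stand out.

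Levels were compared between genes as CPM per kb of own exon sequence, meaning exon bases that no other gene on the same strand shares, because reads in the constant exons cannot be assigned to 1 gene. How such reads were counted is not given in the sources used here, so a level per kb holds only if reads in shared exons were left out of the counts. They were not credited to every gene that shares them. *Pcdhga10* had 0 counts in both homozygous libraries, where *Pcdhgc3*, with the same constant exons, had 146 and 145. In the gamma cluster this own part was 33.2% to 68.5% of a gene's exon length. A median of 99.1% of its 50-base windows occurred nowhere else in the annotated transcripts. These were searched in the sense direction only, so exons on the opposite strand were not counted. In the alpha cluster the own part was 8.6% to 61.1% and the median of such windows 86.0%, so alpha levels rest on less sequence. Of the 58 genes, 45 have an own part free of exons on the opposite strand, 12 are overlapped in part and 1, *Pcdhga10*, is overlapped over its whole own length of 2613 bases.

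The highest gamma gene was *Pcdhgc3*, a C-type gene known for broad expression outside the nervous system. It was at 2.18 ± 0.394 CPM per kb in wild-type cells (SD, n = 2), from 244 and 164 counts. This level lay above that of 65.4 percent of the 28552 genes with any wild-type count. The lengths were unlike, own exon length for *Pcdhgc3* and whole exon length for the genes it was ranked against. The next genes were *Pcdhga11* at 0.844 ± 0.0445, *Pcdhga1* at 0.752 ± 0.092, *Pcdhga7* at 0.727 ± 0.0277 and *Pcdhga12* at 0.703 ± 0.117 CPM per kb (SD, n = 2). Each of these 4 genes overlapped the next in the 2 wild-type libraries, so their order is within the spread, whereas *Pcdhgc3* lay above all of them in every library.

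Gamma genes are divided into A, B and C subtypes by the similarity of their variable exons, and levels varied widely within each. The 12 gamma A genes ran from 0.0225 to 0.844 CPM per kb with a median of 0.453, and the 7 gamma B genes from 0.167 to 0.636 with a median of 0.275. Among the 3 gamma C-type genes, *Pcdhgc5* at 0.369 ± 0.0529 and *Pcdhgc4* at 0.0849 ± 0.0232 CPM per kb were below *Pcdhgc3* (SD, n = 2). *Pcdhga10* was the lowest gamma gene, with 0 and 3 reads in wild-type cells, 1 and 2 with the heterozygous deletion and 0 in both homozygous libraries. Its antisense neighbor *Gm26672* had 2 to 11 counts in the 6 libraries.

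The choice of length moved the size of these levels. Counting only own sequence free of opposite exons, *Pcdhgc3* came to 4.04 and *Pcdhga11* to 1.77 CPM per kb in wild-type cells, and *Pcdhga7* at 0.879 then stood above *Pcdhga1* at 0.859. Whether the counting kept reads of the opposite strand apart is not given in the sources used here.

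The beta cluster was led by 2 genes toward its downstream end. *Pcdhb17* was at 0.426 ± 0.0146 and *Pcdhb22*, the last gene of the cluster, at 0.183 ± 0.00697 CPM per kb in wild-type cells (SD, n = 2). Together they took 60.5% ± 0.849 of the beta counts in wild-type, 56.8% ± 1.3 in heterozygous and 62.7% ± 0.718 in homozygous libraries (SD, n = 2). The third was *Pcdhb2* at 0.0901 ± 0.00938 CPM per kb, from 8 and 6 counts. The median of the 22 beta genes was 0.0232 CPM per kb.

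In the alpha cluster only *Pcdhac2*, the most downstream gene, passed the filter. Its reads numbered 10 and 13 without the deletion, 7 and 5 with 1 deleted copy and 10 in each homozygous library, and it took 60.5% ± 11.2 of the alpha counts in wild-type cells (SD, n = 2). The other C-type gene, *Pcdhac1*, had 1 count in 1 wild-type library and 0 in the other 5. The 12 variable alpha genes summed to 5 to 14 counts per library. *Pcdha4*, second per kb, owed its place to 1 count over 494 bases of own sequence, and *Pcdha5* was at 0.0228 ± 0.00871 CPM per kb (SD, n = 2).

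As a summary of how evenly isoforms were used, the effective number of isoforms was taken as the inverse of the summed squared shares per kb, which equals the number of genes when all are used alike. In the gamma cluster it was 11.7 ± 0.99 in wild-type, 10.6 ± 0.0707 in heterozygous and 12.4 ± 0.849 in homozygous libraries (SD, n = 2), out of 22 genes. The wild-type and homozygous libraries overlapped. In the beta cluster it was 5.14 ± 0.163, 5.63 ± 0.467 and 4.39 ± 0.17 in the same order (SD, n = 2), with both homozygous libraries below all other libraries. The alpha values of 2.33 to 6.60 rest on 15 to 23 counts per library.

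Isoform make-up can be compared between libraries as the share of counts that would have to move. To turn the gamma make-up of 1 library into that of another of the same genotype, 7.2% to 9.56% of the counts would have to move to another isoform (median 8.87%, 3 pairs). Between libraries of different genotype this was 6.59% to 14.5% (median 10.45%, 12 pairs), so the ranges overlapped. Over the 19 gamma genes with at least 60 counts in total, the chi-square per degree of freedom between libraries of the same genotype was 0.963 to 1.27, close to the value of counting error alone, and 0.743 to 2.8 between genotypes. Pairs of libraries share members, and no test was made of them.

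**Figure D2:**
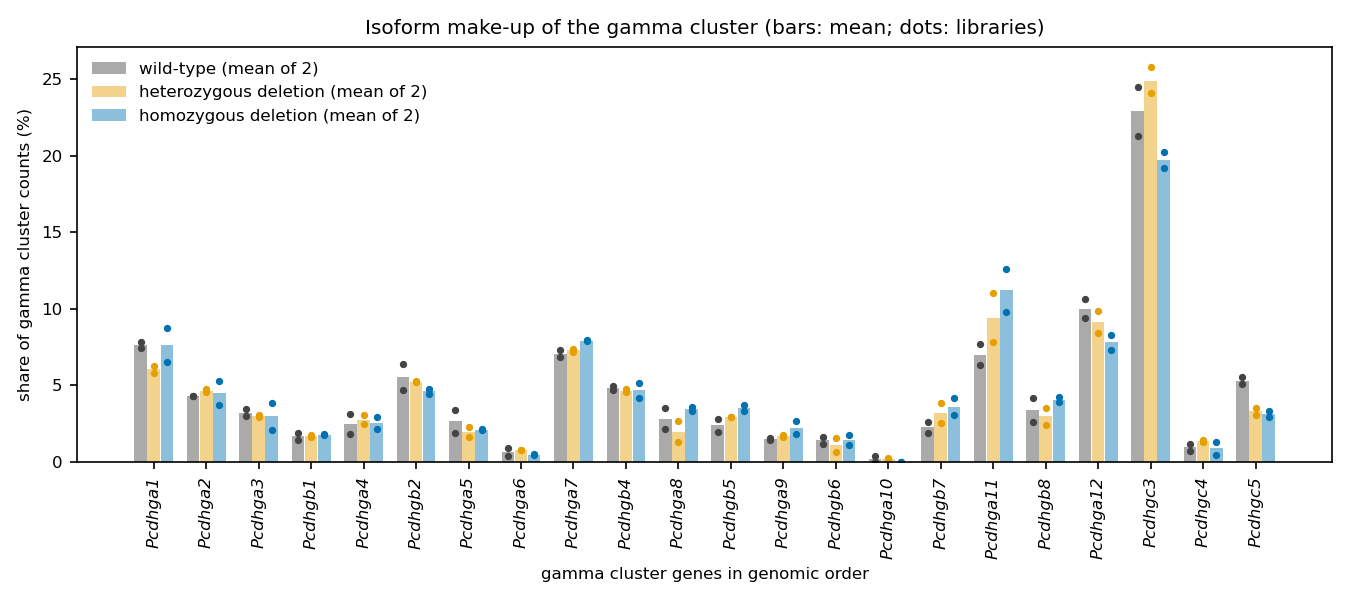
Share of gamma cluster counts in percent for each of the 22 gamma genes in genomic order, with bars for the mean of 2 libraries per genotype and dots for the libraries. *Pcdhgc3* has the largest share in all 6 libraries, and the shares of *Pcdhgc5* are lower with either deletion than in wild-type cells.

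The largest share of the gamma counts belonged to *Pcdhgc3* in every library. It was 22.9% ± 2.26 in wild-type, 24.9% ± 1.25 in heterozygous and 19.7% ± 0.737 in homozygous libraries (SD, n = 2). *Pcdhga11* took 7.00% ± 0.948, 9.40% ± 2.20 and 11.2% ± 1.99 in the same order, and *Pcdhga12* took 9.96% ± 0.841, 9.13% ± 1.06 and 7.79% ± 0.732 (SD, n = 2). The share of *Pcdhgc5* was 5.30% ± 0.323 in wild-type, 3.29% ± 0.358 in heterozygous and 3.11% ± 0.282 in homozygous libraries (SD, n = 2). The 3 C-type genes together took 27.6% and 30.8% in the wild-type libraries, 29.0% and 30.1% in the heterozygous and 23.5% and 23.8% in the homozygous libraries, which lay below all others.

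In the heterozygous deletion against wild-type, no clustered protocadherin passed a threshold. None of the 23 tested genes had a Benjamini-Hochberg adjusted p below 0.05 by edgeR's quasi-likelihood test, where 5.14% of all 16951 tested genes did, and thus none was past that p and a log2 fold change of 1 in size, where 0.165% were. At an unadjusted p below 0.05 there were 2 by edgeR and 0 by DESeq2, where 16.3% of all were by edgeR. These were *Pcdhga11*, with a log2 fold change of 0.52 (95% interval 0.06 to 0.97, adjusted p = 0.234), and *Pcdhgc5*, with -0.63 (-1.16 to -0.09, adjusted p = 0.209). The 23 log2 fold changes ran from -0.83 to 0.61, and 10 genes did not overlap between genotypes, 5 higher and 5 lower, where 47.7% of all tested genes did not.

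When homozygous deletion cells were set against wild-type cells, 1 of the 23 tested genes passed the adjusted p and none passed the fold change as well. The background was 21.4% of all tested genes for the adjusted p alone and 2.14% for both thresholds. The gene was *Pcdhgc5*, the last gene of the gamma cluster, which fell. None of the 23 genes had more than 244 counts in a library, and small changes pass less readily at low counts. The background was not matched for depth, here or in the other comparisons. At an unadjusted p below 0.05 there were 4 by edgeR, *Pcdhga11*, *Pcdhga12*, *Pcdhgc3* and *Pcdhgc5*, and 2 by DESeq2, where 32.5% of all tested genes were past it by edgeR. Between these genotypes 10 genes did not overlap, 5 higher and 5 lower, against 57.9% of all tested genes. The members' median log2 fold change was -0.08, that of all tested genes was -0.006, and 8 genes lay above 0 and 15 below.

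*Pcdhgc5* was at 1.87 and 1.53 CPM in wild-type, 0.964 and 1.24 CPM in heterozygous and 0.916 and 0.96 CPM in homozygous libraries. All 4 deletion libraries lay below both wild-type libraries. The 2 deletion genotypes nearly met, at 0.96 CPM from 25 counts in homozygous replicate 2 and 0.964 CPM from 24 counts in heterozygous replicate 1. The log2 fold change of the homozygous deletion was -0.86 (95% interval -1.42 to -0.30, edgeR adjusted p = 0.0270), and between the deletion genotypes it was -0.23 (-0.85 to 0.39, adjusted p = 0.614). The call rests on 21 to 55 counts per library and was lost with DESeq2 (adjusted p = 0.185), without wild-type replicate 1 (0.234) and without homozygous replicate 1 (0.0796) or 2 (0.0599). The summed fibroblast marker level fell along with it, from a wild-type mean of 5404 CPM to 4014 and 2836 CPM, and its part in the result was not tested.

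*Pcdhgc3* was at 8.30 and 6.42 CPM in wild-type, 8.19 and 8.41 CPM in heterozygous and 6.37 and 5.57 CPM in homozygous libraries. The homozygous libraries were the lowest of the 6, with 1 wild-type library just above them. Against wild-type the log2 fold change was -0.32 (95% interval -0.59 to -0.04, edgeR adjusted p = 0.104), which passed only without wild-type replicate 2 (adjusted p = 0.0384, log2 fold change -0.47). The heterozygous deletion was at 0.17 against wild-type (-0.10 to 0.43, adjusted p = 0.568).

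Between the deletion genotypes *Pcdhgc3* was the only 1 of the 23 genes that passed the adjusted p, where 25.8% of all tested genes did. It was lower in the homozygous deletion by a log2 fold change of -0.48 (95% interval -0.76 to -0.20, edgeR adjusted p = 0.0111). No gene passed both thresholds, where 1.39% of all did. At an unadjusted p below 0.05 there were 2, *Pcdhgc3* and *Pcdhb17*, where 36.9% of all were, and 8 genes did not overlap between the deletion genotypes, 3 higher and 5 lower, where 61.4% of all did not. The call was lost with DESeq2 (adjusted p = 0.0705), without heterozygous replicate 2 (0.0614) and without homozygous replicate 2 (0.0636). The summed fibroblast markers were lower between the same genotypes by a ratio of 0.706, and their part in the result was not tested.

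For the third gamma C-type gene, *Pcdhgc4*, reads numbered 7 and 9 without the deletion, 10 and 13 in heterozygous cells and 3 and 10 in homozygous cells. Its log2 fold changes against wild-type, 0.61 for the heterozygous (95% interval -0.46 to 1.68, edgeR adjusted p = 0.626) and -0.14 for the homozygous deletion (-1.35 to 1.08, adjusted p = 0.905), had intervals on both sides of 0. As a group the C-type genes summed to 9.35 ± 1.49 CPM in wild-type, 9.85 ± 0.41 in heterozygous and 7.16 ± 0.357 in homozygous libraries (SD, n = 2). The other 19 gamma genes summed to 22.6 ± 1.16, 23.5 ± 1.87 and 23.1 ± 1.39 CPM (SD, n = 2), and all 3 genotypes overlapped. The homozygous to wild-type ratio was 0.766 for the C-type genes and 1.02 for the others. The C-type sum rests mostly on *Pcdhgc3*, at 7.36 of 9.35 CPM in wild-type and 5.97 of 7.16 CPM in homozygous libraries. The sum of the others joins genes that went both ways, such as *Pcdhga11* (log2 fold change 0.60) and *Pcdhga12* (-0.45). Neither passed the adjusted p.

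**Figure D3:**
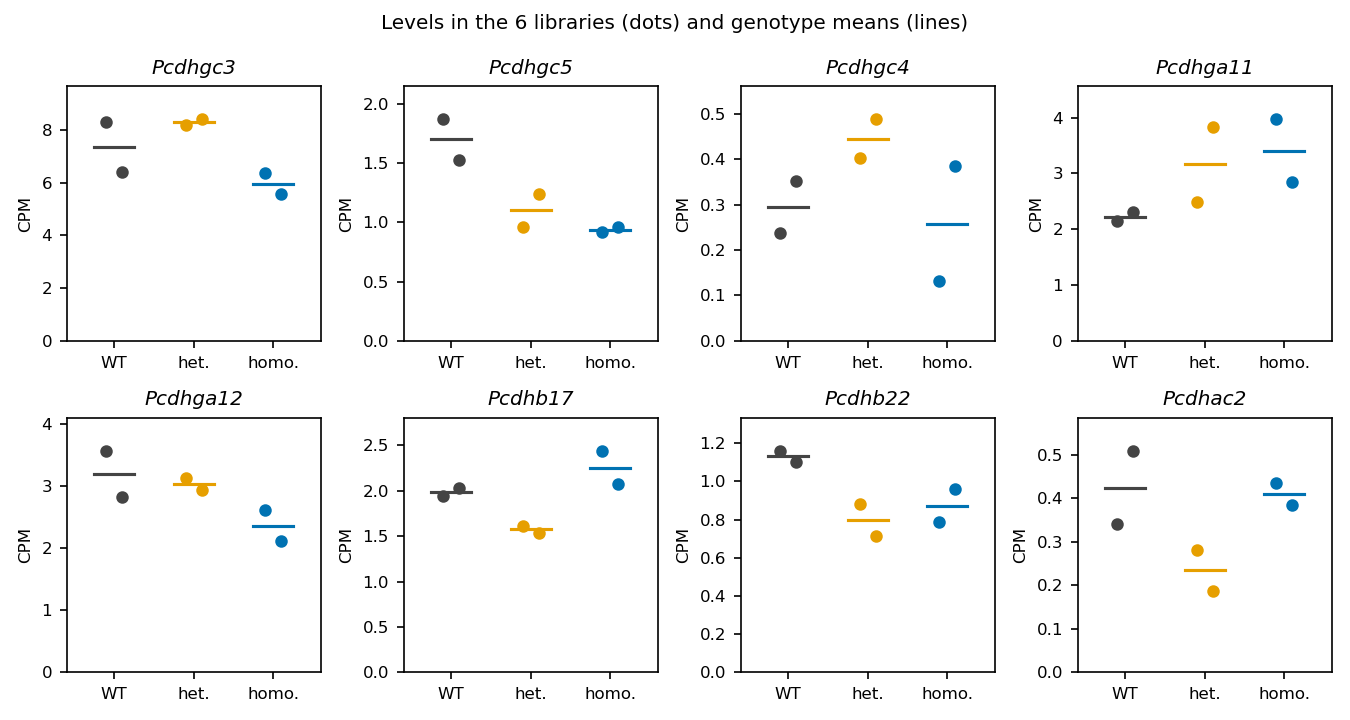
Level in CPM (axis from 0) of 8 clustered protocadherins in the 2 libraries of each genotype (dots) with the genotype mean (line). *Pcdhgc5* is lower in all 4 deletion libraries than in wild-type cells, and *Pcdhga11* ranges from 2.49 to 3.97 CPM in the deletion libraries against 2.14 and 2.31 CPM in wild-type cells.

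*Pcdhga11* was higher in each deletion library than in both wild-type libraries, at 2.14 and 2.31 CPM in wild-type, 2.49 and 3.83 CPM in heterozygous and 3.97 and 2.84 CPM in homozygous cells. The 2 libraries of each deletion genotype differed more from each other than the lower of them did from wild-type. In the homozygous deletion its log2 fold change was 0.60 (95% interval 0.15 to 1.06, edgeR adjusted p = 0.0558), just outside the threshold. It was inside with every gene with any count (adjusted p = 0.0146), with only the libraries compared (0.0392), without heterozygous replicate 1 (0.0374) or 2 (0.0394) and without homozygous replicate 2 (0.0065, log2 fold change 0.84). It stayed outside with DESeq2 (adjusted p = 0.179), without wild-type replicate 1 (0.245) or 2 (0.134) and without homozygous replicate 1 (0.336, log2 fold change 0.36). The heterozygous log2 fold change of 0.52 became 0.16 without heterozygous replicate 2 (adjusted p = 0.902) and 0.78 without heterozygous replicate 1 (0.0704). Between the deletion genotypes it was at 0.09 (-0.34 to 0.52, adjusted p = 0.801).

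Other gamma genes did not pass the adjusted p in any comparison, and those named next were chosen after their values were seen. *Pcdhga12* was at 3.57 and 2.82 CPM in wild-type, 3.13 and 2.93 CPM in heterozygous and 2.62 and 2.11 CPM in homozygous libraries, where its log2 fold change was -0.45 (95% interval -0.85 to -0.05, edgeR adjusted p = 0.103). *Pcdhgb7* was at 0.646 and 0.783 CPM in wild-type cells and at 0.803 to 1.35 CPM in the deletion libraries, with log2 fold changes of 0.61 for the heterozygous (-0.12 to 1.33, adjusted p = 0.415) and 0.61 for the homozygous deletion (-0.12 to 1.34, adjusted p = 0.244). *Pcdhga8* was at 0.843 and 0.451 CPM in heterozygous and 1.05 and 1.04 CPM in homozygous libraries, a log2 fold change of 0.70 (-0.06 to 1.45, adjusted p = 0.171). *Pcdhga1*, first in the cluster, was at -0.28 and -0.09 against wild-type in the heterozygous and homozygous deletion (adjusted p = 0.550 and 0.807).

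**Figure D4:**
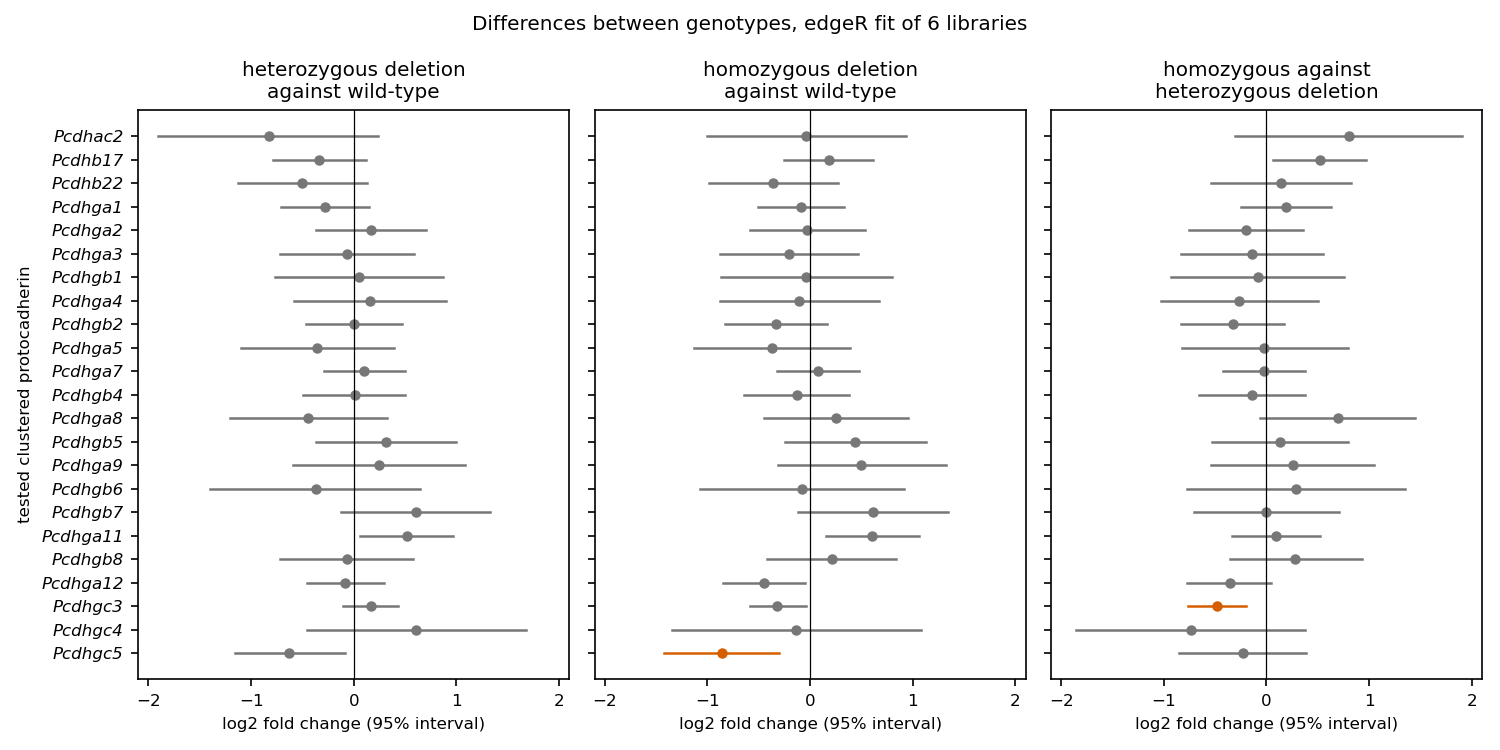
Log2 fold change with its 95% interval (edgeR) for the 23 tested clustered protocadherins in genomic order, in 3 panels for the 3 comparisons, with genes of adjusted p below 0.05 in orange. Only *Pcdhgc5* in the homozygous deletion against wild-type and *Pcdhgc3* between the deletion genotypes are orange, both at negative values.

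No beta gene passed the adjusted p in any comparison. *Pcdhb17* was at 1.94 and 2.03 CPM in wild-type, 1.61 and 1.54 CPM in heterozygous and 2.44 and 2.07 CPM in homozygous libraries, so the heterozygous libraries were lowest. Its log2 fold changes against wild-type were -0.34 in the heterozygous (95% interval -0.79 to 0.12, edgeR adjusted p = 0.491) and 0.18 in the homozygous deletion (-0.25 to 0.61, adjusted p = 0.597), and it was 0.52 between the deletion genotypes (0.06 to 0.97, adjusted p = 0.0909). *Pcdhb22* was at 1.16 and 1.10 CPM in wild-type, 0.883 and 0.713 CPM in heterozygous and 0.785 and 0.96 CPM in homozygous libraries, below wild-type in all 4 deletion libraries (log2 fold changes -0.50 and -0.36, adjusted p = 0.451 and 0.451). The other 20 beta genes summed to 44 to 61 counts per library.

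*Pcdhac2*, the tested alpha gene, was at 0.340 and 0.509 CPM in wild-type, 0.281 and 0.188 CPM in heterozygous and 0.436 and 0.384 CPM in homozygous libraries. Its log2 fold changes against wild-type were -0.83 in the heterozygous (95% interval -1.91 to 0.24, edgeR adjusted p = 0.462) and -0.04 in the homozygous deletion (adjusted p = 0.969). These values rest on 5 to 13 reads per library.

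**Figure D5:**
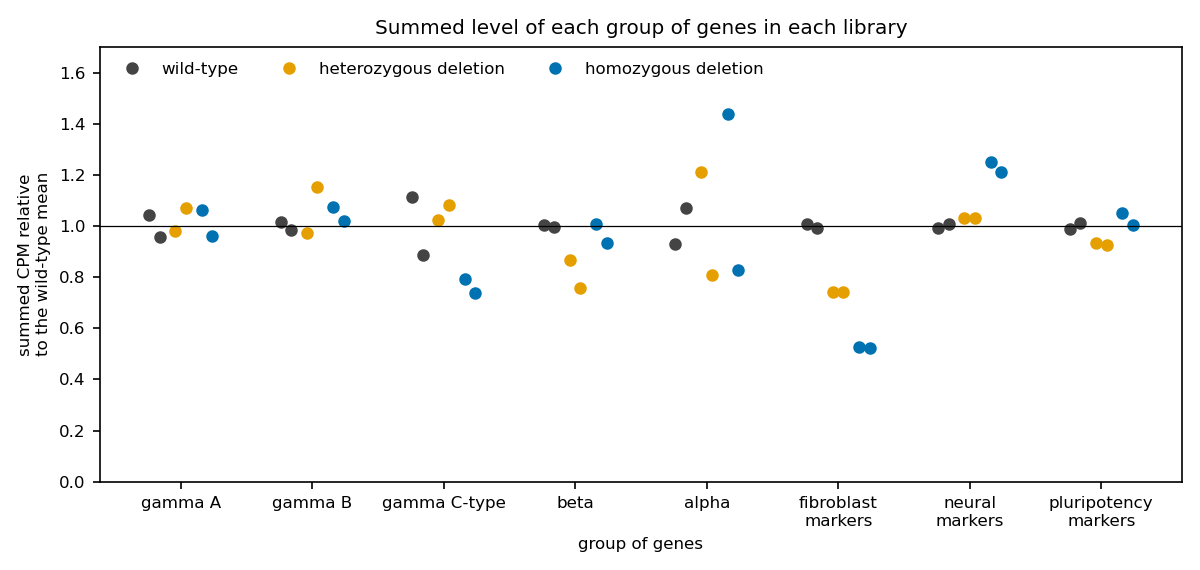
Summed CPM of each group of genes in each library relative to the wild-type mean of that group (axis from 0), with dots colored by genotype. Fibroblast markers step down from wild-type to the homozygous deletion (ratio 0.525), and gamma A and gamma B genes stay within the spread of the libraries. The gamma C-type sum, which rests mostly on *Pcdhgc3*, is lowest in the homozygous libraries (0.766).

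Several genes that take part in promoter choice and silencing of these clusters rose with the homozygous deletion. Of 32 such genes tested against wild-type, 15 rose and 1 fell past the adjusted p, where 10.9% of all tested genes were called higher and 10.5% lower. *Ctcf*, which encodes the insulator protein that binds protocadherin promoters and enhancers, was at 222 and 226 CPM in wild-type and 287 and 286 CPM in homozygous libraries, a log2 fold change of 0.36 (95% interval 0.27 to 0.44, edgeR adjusted p = 1.63e-06). *Mau2*, a subunit of the cohesin loader, rose by 0.34 (adjusted p = 5.14e-05), *Tet2*, which oxidizes methylated cytosine, by 0.33 (0.00031) and *Smchd1*, a repressor of the clusters, by 0.27 (0.000115). In the heterozygous deletion 1 rose and 2 fell, namely *Tet3* (log2 fold change 0.24, edgeR adjusted p = 0.0373), *Dnmt3a* (-0.18, 0.0118) and *Dnmt3l* (-0.14, 0.0465), and each of these calls was lost without at least 1 library. That of *Dnmt3l* was also lost with the replicate number as a block (adjusted p = 0.0778), and that of *Tet3* with DESeq2 (0.218). In the homozygous libraries the summed fibroblast markers were at 0.525 and the summed neural markers at 1.23 of the wild-type level. The neural sum rests mostly on *Stmn2* and *Tubb3*, at 187 and 65.8 of 334 CPM in wild-type and 236 and 90.2 of 411 CPM in homozygous libraries. Over the 15 tested neural markers the median log2 fold change was -0.16, with 7 above 0 and 8 below. The part of these markers in the results was not tested.

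Genes of proteins known to act with protocadherins inside the cell or in the membrane were called about as often as all genes. Of 21 such genes tested, 3 rose and 2 fell past the adjusted p in the homozygous deletion, or 23.8% against 21.4% of all tested genes. *Cyfip2*, of the WAVE complex, rose by 0.32 on the log2 scale (edgeR adjusted p = 0.000739). *Nlgn2*, a synaptic adhesion protein, was at -0.36 (adjusted p = 0.000645), and *Prkca*, a protein kinase C, at -0.38 (0.0242), a call lost with DESeq2 (0.172) and without 3 of the 6 libraries.

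Among protocadherins outside the clusters, *Pcdh7* and *Pcdh9* fell past both thresholds. Of 17 tested non-clustered protocadherins and giant cadherins, 2 rose and 5 fell past the adjusted p in the homozygous deletion, or 41.2% against 21.4% of all tested genes. *Pcdh7* was at 11.1 and 11.9 CPM in wild-type, 8.43 and 8.64 CPM in heterozygous and 5.50 and 5.03 CPM in homozygous libraries, a log2 fold change of -1.13 (95% interval -1.36 to -0.90, edgeR adjusted p = 2.2e-07). *Pcdh9* was at -1.41 (adjusted p = 0.00263), *Pcdh19* at -0.97 (6.91e-07) and *Fat4* at -0.83 (0.00369), and the calls of *Pcdh9* and *Fat4* were lost without wild-type replicate 1 (0.0653 and 0.148). *Fat1*, a giant cadherin, rose by 0.75 (edgeR adjusted p = 9.29e-09). *Pcdh17*, a protocadherin outside the clusters, went the other way from *Pcdh7*, at 2.38 and 2.07 CPM in wild-type and 3.58 and 3.26 CPM in homozygous libraries.

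Among 9 tested classical cadherins, 2 rose and 4 fell past the adjusted p in the homozygous deletion, or 66.7% against 21.4% of all tested genes. *Cdh1*, the cadherin of epithelia and of mESCs, was at 873 and 881 CPM in wild-type and 1268 and 1264 CPM in homozygous libraries, a log2 fold change of 0.53 (edgeR adjusted p = 4.33e-09), and *Cdh3* rose by 0.57 (1.37e-07). *Cdh11*, a cadherin of mesenchymal cells, was at 32.8 and 37.0 CPM in wild-type and 13.7 and 14.6 CPM in homozygous libraries, a log2 fold change of -1.30 (4.97e-10), and *Cdh6* was at -1.25 (8.18e-06). Of the 32 tested fibroblast markers 29 fell and 0 rose in this comparison, with a median log2 fold change of -1.11, and 24 fell in the heterozygous deletion, with a median of -0.48. Of the 15 tested neural markers, 4 rose and 1 fell in the homozygous deletion (33.3%) and 0 passed in the heterozygous deletion, where 1 was higher and 3 were lower at an unadjusted p below 0.05 by edgeR. Of the 17 pluripotency markers, 2 rose and 1 fell in the homozygous deletion (17.6%), and 8 fell and 0 rose in the heterozygous deletion (47.1%). These shares stand against 21.4% of all tested genes in the homozygous and 5.14% in the heterozygous deletion. The part of these cell type markers in the cadherin results was not tested.

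Of 70 annotated genes within 500 kb of the clusters or between them, 30 were tested, and 3 rose and 1 fell in the homozygous deletion, or 13.3% against 21.4% of all tested genes. *Hbegf*, which encodes a growth factor, fell by 0.74 on the log2 scale (edgeR adjusted p = 1.71e-08), and *Arap3* rose by 0.34 (0.00471), a call lost without wild-type replicate 2 (0.0648), and by 0.67 in the heterozygous deletion (1.33e-05). *Pcdh1*, a non-clustered protocadherin downstream of the gamma cluster, was at 45.2 and 47.7 CPM in wild-type and 46.5 and 43.8 CPM in homozygous libraries. Between the beta and gamma clusters *Taf7*, a subunit of the transcription factor TFIID, had 2949 to 3692 counts, more than all clustered protocadherins together. The noncoding RNA gene *3222401L13Rik* lies on the same strand as the gamma cluster and ends 51 bases before *Pcdhga1*. It had 57 to 94 counts per library against 46 to 78 for *Pcdhga1*, and its log2 fold change in the homozygous deletion was -0.26 (95% interval -0.64 to 0.13, adjusted p = 0.368).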

How the data were processed

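RNA was sequenced from mESCs of 3 genotypes with 2 libraries each, grouped by the sample labels. For 55385 genes the authors deposited unnormalized read counts. The submitters' processing notes name STAR 2.6.1d, Trimmomatic 0.39, SAMtools 1.9, featureCounts 1.6.4 and DESeq2 1.22.2 with GRCm38 (mm10). The annotation release, the strand setting and the handling of reads in shared exons are not given in the sources used here. Exon positions came from GENCODE for GRCm38, in which 55144 identifiers were found.

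The 16951 genes that reached 10 counts in 2 or more libraries were fitted in 1 quasi-likelihood model of 3 genotypes with edgeR 4.0.16 in R 4.3.3, with TMM factors and Benjamini-Hochberg adjustment over all tested genes. The fit was tested on simulated data with a common dispersion and changes larger than those of the tested clustered protocadherins. That test does not show how well small changes at low counts are found. Replicate libraries differed by more than sampling noise (chi-square per degree of freedom 2.21 to 3.38), so none was a duplicate. CPM per kb used own exon length for the clustered protocadherins and whole exon length for the genes they were ranked against. The floor of 3 counts bounds the level of a gene without a count, as far as its reads were kept in the counting. It does not cover the counting error of levels, shares and effective numbers of isoforms that rest on reads. Those are given with the SD between libraries or as single values, without an interval for counting error.

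The members and gene lists were chosen with earlier results of these data known. Genes named by rule were members past the adjusted p in any comparison, the 3 highest per kb in wild-type cells of each cluster, the C-type genes, and from each list at most the 4 largest changes past the adjusted p per comparison and the 2 highest in wild-type cells; other names were chosen after their values were seen. Alternative settings were a DESeq2 1.42.0 fit, edgeR with DESeq2 size factors or with no composition factor, 3 different low-count filters, fits of just the genotypes compared, a replicate block and each library left out in turn. The own length free of opposite exons and the counts of genes without overlap were added after the data were seen. Summaries were made in Python 3.11.15 with pandas 2.3.3. No sequences of the genes are printed here.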

Additional observations from a re-analysis of the deposited data

Results flagged for a closer look

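*Pcdhgc3* differed between the homozygous and the heterozygous deletion in the test of that difference itself, with a log2 fold change of -0.48 (95% interval -0.76 to -0.20, edgeR adjusted p = 0.0111), and both homozygous libraries lay below both heterozygous libraries. Among 23 tested clustered protocadherins it was the only 1 that passed, where 25.8% of all tested genes did. The adjusted p ranged from 0.00246 to 0.0705 over the other settings.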

How the results depend on the processing

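No clustered protocadherin was past both thresholds in any comparison under any setting run. The count past the adjusted p alone was 1 in the homozygous deletion against wild-type. It became 2 with every gene with any count, 0 with DESeq2 and 2 with only the libraries compared, and 0 to 2 when each library was left out. Between the deletion genotypes the count was 1, became 0 with DESeq2 and was 0 to 1 when each library was left out. In the heterozygous deletion it was 0 throughout. DESeq2 called fewer of all genes as well, 2265 against 3633 by edgeR in the homozygous deletion against wild-type. The filter on low counts left 35 of the 58 genes untested. With every gene with any count 56 were tested, and 2 had no count.

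Replicate numbers are shared between genotypes by the labels alone. Deviations of same-numbered libraries correlated at 0.0262, -0.125 and 0.0113 over genes, which gave no sign of pairing, and with the replicate number as a block the counts of clustered protocadherins past the adjusted p were 0, 1 and 1. Over all genes the block moved the calls in the homozygous deletion from 3633 to 3447.

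When each library was left out in turn, log2 fold changes near 0 turned sign. These were *Pcdhac2* in the homozygous deletion against wild-type (-0.31 to 0.27), *Pcdhga1* (-0.26 to 0.06) and *Pcdhgc4* (-1.13 to 0.40) in the same comparison, *Pcdhga12* in the heterozygous deletion (-0.24 to 0.10) and *Pcdhga11* between the deletion genotypes (-0.18 to 0.44). *Pcdhgc5* in the homozygous deletion stayed between -0.98 and -0.70, and *Pcdhgc3* between the deletion genotypes between -0.57 and -0.38. The share of the gamma cluster taken by *Pcdhgc3* in wild-type cells was 21.0% per kb, 22.9% of counts and 29.5% per kb of own sequence free of opposite exons. These shares come from the same counts and differ by the length used to scale them. The cause of the shifts between fits with a library left out was not tested.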
